A study of Caenorhabditis elegans with 2 samples.

Results

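The dod genes, named as downstream of DAF-16, are genes of the nematode Caenorhabditis elegans whose RNA responds to insulin-like signalling. They were taken as the rows of the deposited expression table that carry the names dod-3, dod-6, dod-17, dod-18, dod-19, dod-20, dod-21, dod-22, dod-23 and dod-24, which gave 10 of the 19874 genes analysed. Total RNA was sequenced from cultures of mixed stage, grown at 20 °C on OP50 bacteria, so a value is an average over stages. Both libraries (replicates 1 and 2, n = 2) came from 1 strain, daf-2(e1370);daf-12(m20). Separate cultures are not stated in the labels, and the spread between the libraries may therefore be technical. daf-2 encodes the worm insulin receptor, whose function e1370 reduces, and daf-12 encodes a steroid receptor that takes part in the choice between dauer and reproductive growth. Both alleles were present in both samples. No wild type, daf-2 single mutant or daf-16 mutant was analysed here, so the levels below do not show what the mutations did to any dod gene.

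The DAF-2 receptor acts through a kinase cascade that keeps the FOXO transcription factor DAF-16 out of the nucleus. When DAF-2 signalling is low, DAF-16 enters the nucleus, class 1 genes rise and class 2 genes fall. The zinc finger factor PQM-1 is known to act on class 2 genes in the intestine. dod-3 and dod-6 belong to class 1, and dod-17 to dod-24 belong to class 2, by the published naming of these genes. dod-3 is often used as a readout of DAF-16 activity. dod-17, dod-21, dod-22 and dod-24 encode proteins with a CUB-like domain, a family known in worms for genes that respond to bacterial infection.

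Expression was deposited as RPKM, the reads of a gene divided by its length and by the reads of its library, so levels can be set side by side per length. Low RPKM values fall on steps of whole reads, which put the depth near 10540000 reads for replicate 1 and near 14655000 for replicate 2. RPKM times the coding length in the WBcel235 annotation came out within 0.1 of a whole read in replicate 1 for 8 of the 9 dod genes that had reads there. The exception was dod-20, at 30.2 reads. In replicate 2 this held for 4 of the 10 genes, and the distance from a whole read was up to 0.255 for the others, apart from 0.416 for dod-20. Read numbers are therefore estimates, and those of dod-20 are the least certain. Error ranges of single values are exact 95% Poisson intervals of the reads, and they cover counting error only.

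Across the 10 genes the levels covered a wide range, and the highest 3 held most of the signal. The median of the dod genes reached 31.5 RPKM (replicate 1) and 29.5 RPKM (replicate 2), beside medians of 6.21 and 6.13 RPKM over all 19874 genes. No listed gene was at 0 RPKM in both replicates. All genes therefore means genes detected in at least 1 replicate, here and in the shares below. A mean of at least 1 RPKM was reached by 9 of the 10 dod genes, beside 72% of all genes. A mean of at least 100 RPKM was reached by 3 dod genes, beside 7.63% of all genes. These were dod-6, dod-19 and dod-3, which held 82.6% of the summed RPKM of the dod genes in replicate 1 and 82.9% in replicate 2.

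**Figure D1:**
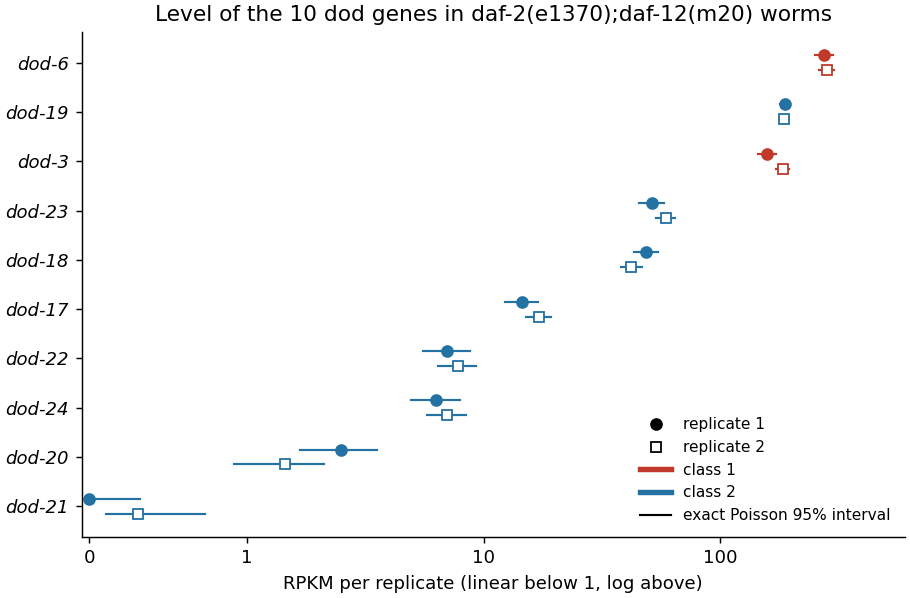
RPKM of each dod gene in replicate 1 (filled circles) and replicate 2 (open squares), with exact Poisson 95% intervals as bars, on an axis that is linear below 1 and logarithmic above. Class 1 genes are red and class 2 genes blue. dod-6 lies highest at 274 and 282 RPKM, and dod-21 lies lowest at 0 and 0.31 RPKM.

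Both class 1 genes were abundant by the deposited values. dod-6 (T20G5.7, WBGene00011869) was at 274 RPKM (replicate 1) and 282 RPKM (replicate 2), a mean of 278 ± 5.20 RPKM (SD, n = 2). This level was above that of 96.9% of all genes. Behind these values stood about 529 and 755 reads, with intervals of 251 to 299 RPKM and 262 to 302 RPKM. The gene lies on chromosome III from 10197716 to 10198352, on the plus strand of WBcel235, and its coding sequence of 183 bp is the shortest of the 10.

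dod-3 (C24B9.9, WBGene00016052) was at 158 RPKM (replicate 1) and 183 RPKM (replicate 2), with about 533 and 861 reads (mean 170.3 ± 18.1 RPKM, SD, n = 2). It was higher in replicate 2, with a ratio of replicate 2 to replicate 1 of 1.16 and an exact 95% interval of 1.04 to 1.297. Of the 10 genes it alone had an interval of this ratio that left out 1. The interval covers counting error only, and the share of all genes with such an interval was not counted. On the log2(RPKM + 1) scale the difference of dod-3 was 1.66 times the SD of genes of like level. The gene lies on chromosome V from 2730622 to 2731098, on the minus strand. Its nearest listed protein-coding neighbours were chemoreceptor genes at very low levels. str-33, 378 bp away, was at 0.09 and 0 RPKM, and srg-57, 1078 bp away, was at 0 and 0.07 RPKM.

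The 8 class 2 genes ranged from the second highest dod gene to the lowest. Their medians were 10.7 RPKM (replicate 1) and 12.4 RPKM (replicate 2). On the log2(RPKM + 1) scale, the median of the class 1 dod genes minus that of the class 2 dod genes came to 4.23 and 4.18 in replicates 1 and 2, with a mean of 4.21 ± 0.04 (SD, n = 2). The class 1 side of this difference rests on dod-3 and dod-6 alone. It is a difference of levels within 1 strain, and the classes overlapped, since dod-19 of class 2 lay between dod-6 and dod-3.

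dod-19 (ZK6.10, WBGene00022644) was the highest class 2 dod gene, at 187 RPKM (replicate 1) and 185 RPKM (replicate 2). Its mean of 186 ± 0.93 RPKM (SD, n = 2) was above that of 95.7% of all genes. It also had the most reads of the 10, about 2401 and 3315, with intervals of 179 to 194 RPKM and 179 to 192 RPKM. Its coding sequence of 1221 bp is the longest of the 10. The gene has 3 annotated transcripts and lies on chromosome V from 411782 to 414759, on the minus strand.

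dod-23 (F49E12.2, WBGene00009898) and dod-18 (C54G4.6, WBGene00008316) were at intermediate levels. dod-23 was at 51.3 RPKM (replicate 1) and 58.7 RPKM (replicate 2) (mean 54.985 ± 5.25 RPKM, SD, n = 2). It lies on chromosome II from 8398161 to 8399164, on the minus strand, 1134 bp from F49E12.1, now named skpo-1, a peroxidase gene at 51.3 and 46.1 RPKM. dod-18 was higher in replicate 1, at 48.6 RPKM (replicate 1) and 42.1 RPKM (replicate 2) (mean 45.3 ± 4.596 RPKM, SD, n = 2). It lies on chromosome I from 8019578 to 8020901, on the minus strand.

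The position of dod-18 limits its value. C54G4.7, on the plus strand, shares 185 of the 594 coding bases of dod-18 with its own exons in the annotation. The TruSeq V2 kit named in the labels does not mark strand, so reads from these shared bases cannot be told apart. C54G4.7 was at 28.3 RPKM (replicate 1) and 30.0 RPKM (replicate 2). rskn-2, on the plus strand, overlaps the gene at its edge but shares 0 coding bases with it.

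The 4 genes with a CUB-like domain were lower, with a median of 6.65 RPKM in replicate 1 and 7.37 RPKM in replicate 2, close to the medians of all genes. dod-17 (K10D11.1, WBGene00010745) was the highest of them, at 14.4 RPKM (replicate 1) and 17.03 RPKM (replicate 2) (mean 15.7 ± 1.84 RPKM, SD, n = 2), from about 156 and 256 reads. dod-22 (F55G11.5, WBGene00010125) was at 7.01 and 7.76 RPKM, from about 76 and 117 reads (mean 7.38 ± 0.53 RPKM, SD, n = 2). Next came dod-24 (C32H11.12, WBGene00007875), at 6.29 and 6.98 RPKM, from about 72 and 111 reads (mean 6.63 ± 0.49 RPKM, SD, n = 2). All of these were a little higher in replicate 2, but each interval of the ratio included 1.

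dod-21 (C32H11.10, WBGene00007873) was barely detected. It was listed at 0 RPKM in replicate 1, where the exact interval runs from 0 to 0.322 RPKM (the floor of 3 reads is 0.262 RPKM). In replicate 2 it was at 0.31 RPKM, which corresponds to about 5 reads and an interval of 0.102 to 0.733 RPKM. dod-20 (B0554.6, WBGene00015259) was also low, at 2.49 RPKM (replicate 1) and 1.45 RPKM (replicate 2) (mean 1.97 ± 0.74 RPKM, SD, n = 2). Its ratio of replicate 2 to replicate 1 was 0.582, the lowest of those calculated, with an exact 95% interval of 0.322 to 1.02. At this depth the difference between the replicates of dod-20 could not be told from counting error.

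By mean RPKM the order was dod-6, dod-19, dod-3, dod-23, dod-18, dod-17, dod-22, dod-24, dod-20 and dod-21. 3 pairs of neighbours in this order differed by less than the sum of their SDs. The replicate ranges of neighbours did not overlap in any pair, these 3 included. For dod-19 over dod-3 the difference was 15.6 RPKM against a sum of 18.99 RPKM. For dod-23 over dod-18 it was 9.68 RPKM against 9.85 RPKM, and for dod-22 over dod-24 it was 0.75 RPKM against 1.02 RPKM. Between the other neighbours the difference was larger than that sum, and dod-6 was 141-fold above dod-20, or 51.3-fold when the same reads are divided by exonic length. The gap between dod-20 and dod-21 is less firm, since dod-21 rests on the 5 reads of 1 replicate.

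**Figure D2:**
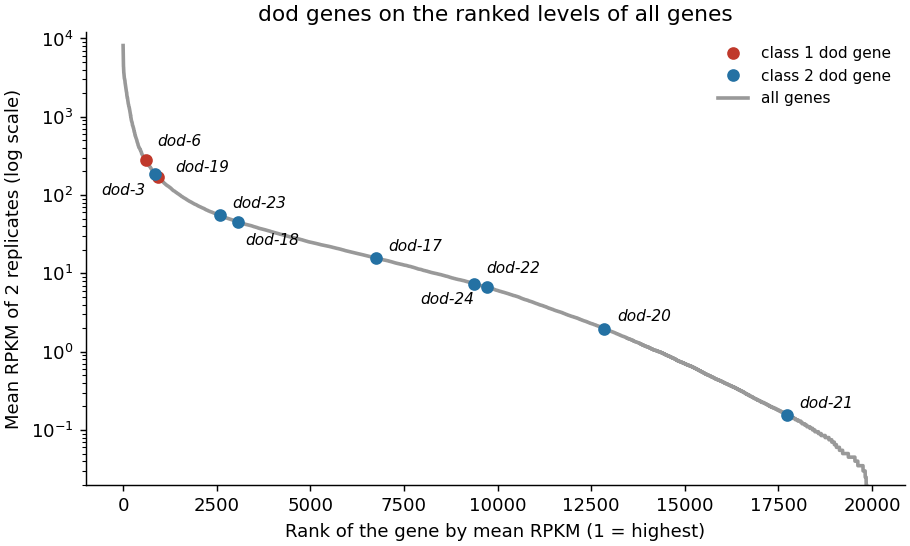
Mean RPKM of the 2 replicates (log axis) against the rank of each gene, with all 19874 genes as a grey line and the dod genes as points. dod-6, dod-19 and dod-3 lie together near the top, dod-22 and dod-24 lie near the middle of all genes, and dod-21 lies above 10.5% of them.

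The order of the highest genes depends on the length used as divisor. The deposited values follow coding length, and in dod-6 only 31.5% of the exonic length is coding, a share lower than in nearly all genes (1.33% of genes lie below it). In the other dod genes the share was between 68.4% and 95.3%. Dividing the same reads by exonic length, an alternative chosen after seeing the data, gave dod-6 87.5 ± 1.64 RPKM, dod-3 130.2 ± 13.8 RPKM and dod-19 163 ± 0.81 RPKM (SD, n = 2). dod-19 was then the highest of the 10 and dod-6 the third, and dod-24 moved above dod-22. Whether reads outside the coding sequence were counted is not given in the sources used here.

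**Figure D3:**
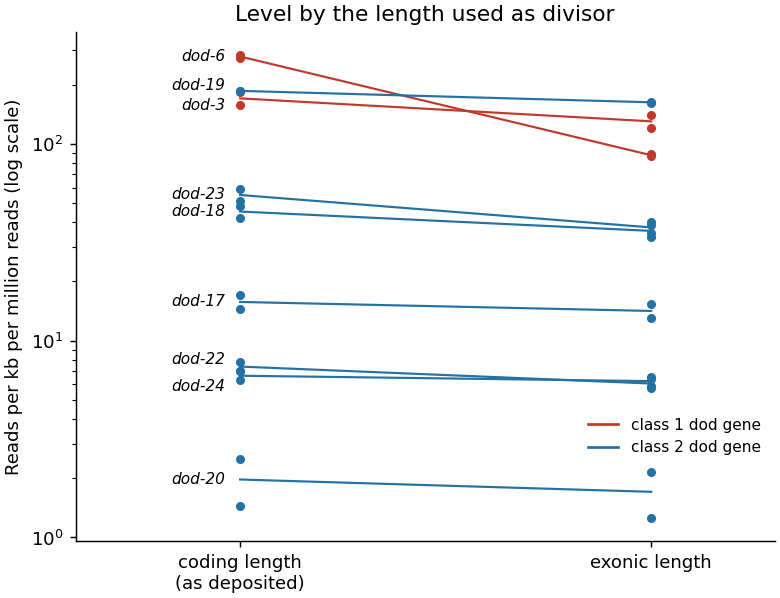
Level of the 9 dod genes with a mean of at least 1 RPKM, in reads per kb and library size (log axis), divided by coding length as deposited (left) and by exonic length (right), with a point for each replicate and a line through the means. The line of dod-6 crosses those of dod-19 and dod-3.

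Level tended to be lower at longer coding length within the 10 genes, with Spearman's rho of -0.54 across genes. dod-19 went the other way, with the longest coding sequence and the second highest level. RPKM is itself divided by length, so level and coding length are not independent measures. Across the 17892 genes that have a coding length, rho was 0.01. The points share the same libraries and genes are not independent replicates, so both values are descriptions.

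The replicates of each dod gene with a mean of at least 1 RPKM differed by less than 2-fold. dod-20 differed most among these, with a ratio of replicate 2 to replicate 1 of 0.582. On the log2(RPKM + 1) scale, replicate 2 minus replicate 1 ran from -0.51 for dod-20 to 0.39 for dod-21, with a median of 0.13 over the 10 genes. The pseudocount of 1 makes differences at low levels smaller, and with a pseudocount of 0.1 dod-20 was at -0.74. Among the 9 dod genes with a mean of at least 1 RPKM, 0 lay beyond 2-fold, beside 0.72% of the 14313 genes that pass the same limit. At that share, a count of 0 among 9 genes does not set the dod genes apart. 7 dod genes were higher in replicate 2 and 3 in replicate 1. The share of all genes higher in replicate 2 was not counted. Over the 14313 genes the median of this difference was -0.024, with an SD of 0.255. The largest difference in proportion to genes of like level belonged to dod-3, whose 0.22 was 1.66 times the SD of the 1240 genes within 2-fold of its mean. dod-19 differed by -0.01, the least of the 10.

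**Figure D4:**
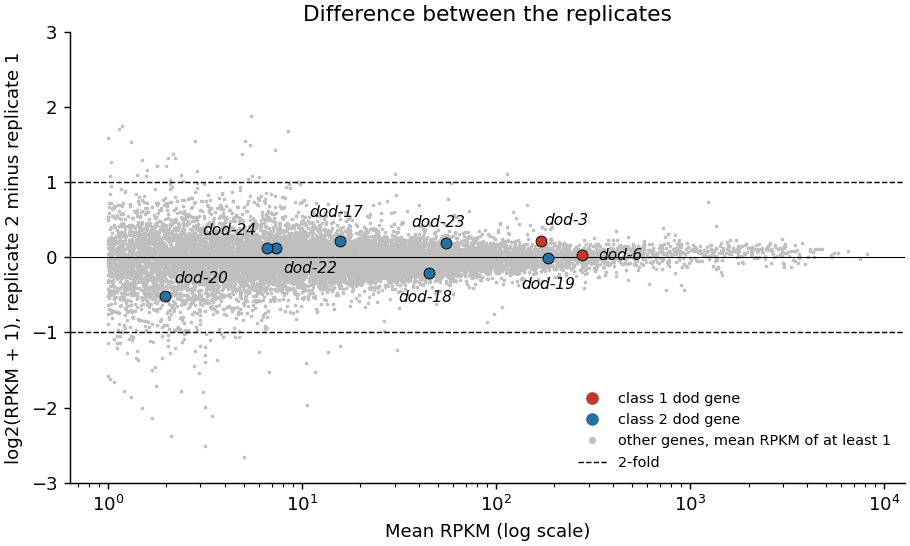
Difference between the replicates, as log2(RPKM + 1) in replicate 2 minus replicate 1, against mean RPKM (log axis) for genes with a mean of at least 1 RPKM, with dashed lines at 2-fold. All 9 dod genes shown lie inside the lines, with dod-20 lowest at -0.51.

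6 of the 8 class 2 genes lie in 2 short stretches of the genome, and levels there changed steeply from gene to gene. The 4 CUB-like dod genes lie on chromosome IV within 41.6 kb. dod-21 spans 12936738 to 12937988 on the plus strand, dod-24 spans 12940106 to 12941354 on the minus strand, dod-22 spans 12965374 to 12967392 and dod-17 spans 12976303 to 12978343, both on the plus strand. The table lists 13 genes in this stretch. The 12 of them with a coding length are alike in size, from 1014 to 1086 bp.

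On chromosome IV the level ran from near 0 to about 50 RPKM. The highest gene of the stretch was not a dod gene. F55G11.8, 728 bp from dod-22, was at 50.03 and 51.2 RPKM, which was 6.86-fold above dod-22. On the other side of dod-22 the gene F55G11.2, only 52 bp away, was at 1.11 and 0.80 RPKM, and dod-22 was 7.73-fold above it.

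F55G11.4, 699 bp from dod-17, was at 25.3 and 26.3 RPKM, which was 1.64-fold above dod-17. K10D11.2, 642 bp beyond dod-17, was at 1.48 and 1.93 RPKM. dod-21 and dod-24 are next to each other on opposite strands, 2117 bp apart, and both have 3 exons and 1086 bp of coding sequence. The 9 genes of the stretch other than dod genes had a median of 0.955 RPKM. Their sequences were not compared here, so reads shared between similar copies may have been split among these genes, which leaves each single value uncertain.

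**Figure D5:**
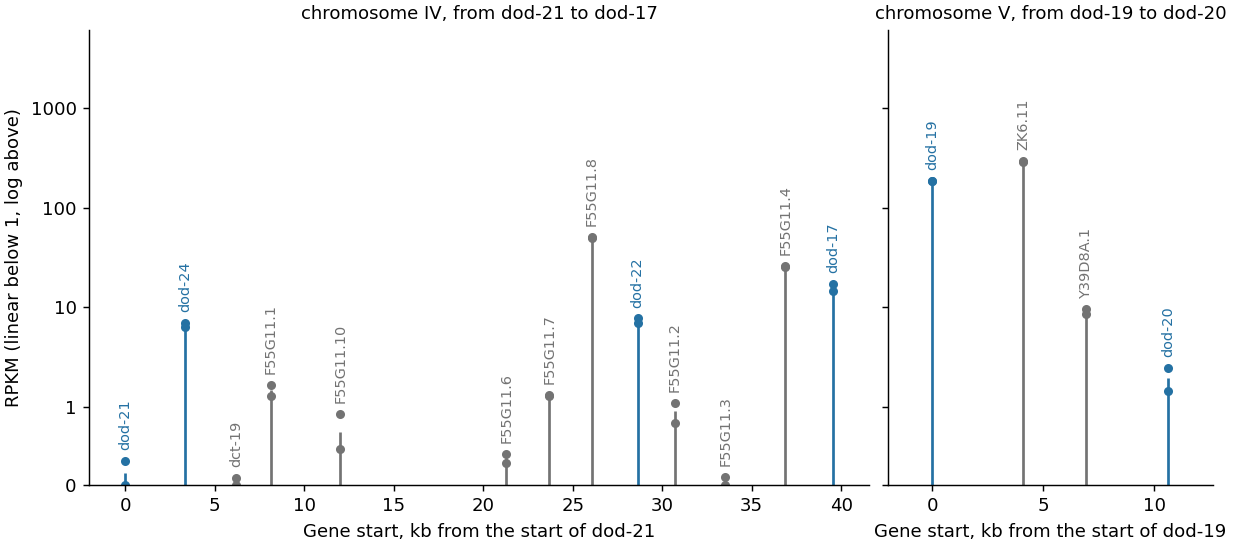
RPKM of each listed gene (a point per replicate, a stem up to the mean, axis linear below 1 and logarithmic above) against the distance of its start from the first gene of the stretch, in kb. dod genes are blue and other genes grey; F55G11.8 and ZK6.11 are the highest of their stretches, at 50.6 and 290 RPKM on average.

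On chromosome V, dod-19 and dod-20 lie within 12.4 kb, with dod-20 from 422433 to 424177 on the plus strand. dod-19 was 94.4-fold above dod-20. Between them lie ZK6.11 and Y39D8A.1. ZK6.11, now named irg-8 and thus an infection response gene by name, is 1110 bp from dod-19 on the same strand, and was at 294 RPKM (replicate 1) and 286 RPKM (replicate 2), which was 1.56-fold above dod-19. Y39D8A.1 was at 8.56 and 9.68 RPKM, and B0554.5, 262 bp beyond dod-20, was at 1.69 and 1.84 RPKM.

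Other genes of the same response set the dod genes in context. The genes of the factors named above were expressed, with daf-16 at 35.7 ± 0.90 RPKM and pqm-1 at 53.1 ± 3.97 RPKM (SD, n = 2). The intestinal GATA factor gene elt-2 was at 22.5 ± 1.499 RPKM (SD, n = 2). Whether any of these factors acts on the dod genes in this strain was not tested. RNA levels do not give the activity of a factor. The stress and immune regulators skn-1, pmk-1 and hsf-1 were at 60.2 ± 0.28, 24.9 ± 0.35 and 21.9 ± 0.23 RPKM (SD, n = 2). All 10 intestinal marker genes had a mean of at least 1 RPKM, a limit reached by 72% of all genes. Their median was 1075 RPKM. Their highest were the yolk protein genes vit-6 and vit-2 and asp-1, an aspartyl protease gene, at 3055, 2602 and 2538 RPKM on average, and elt-2 was the lowest.

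Of 27 other genes written down as class 1, 17 had a mean of at least 100 RPKM, beside 7.63% of all genes. The median of the 27 was 157 RPKM. dod-6 and dod-3 lay above that median, but without the list genes under 1 RPKM the median was 214 RPKM, which dod-6 alone exceeded. hsp-16.49, hsp-16.48 and sip-1, all small heat shock genes, led them, at 1785, 1780 and 1467 RPKM on average, and old-1 was lowest at 0.475 RPKM. The hsp-16 genes are near-identical copies, so reads may have been split among them. Of 9 other genes in the table written down as class 2, 4 had a mean of at least 100 RPKM, beside the same 7.63% of all genes. The median of the 9 was 67.3 RPKM. vit-2, which is also among the intestinal markers, vit-5 and the nuclease gene nuc-1 led them, at 2602, 2450 and 132 RPKM on average, and the guanylyl cyclase gene gcy-6 was lowest at 0.08 RPKM. Of the 8 class 2 dod genes, dod-19 alone lay above that median. The class of the genes in these lists could not be checked here, as no wild type was analysed.

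In a list of 26 further genes written down as CUB-like, 22 had a mean of at least 1 RPKM, beside 72% of all genes. A mean of at least 100 RPKM was reached by 3 of the 26, beside 7.63% of all genes, and their median was 11.54 RPKM. C17H12.8, F35E12.6 and C29F3.7 led the list at 371 ± 35.2, 356 ± 23.2 and 102 ± 0.45 RPKM (SD, n = 2), all above dod-17, the highest CUB-like dod gene. The lowest was C32H11.9, now named cld-1, which lies 466 bp from dod-21 and was at 0 and 0.12 RPKM. The files give no protein domains, and 2 entries of that list now carry names of other families (C32H11.5 as srlf-4 and T24E12.5 as rcd-1).

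With 2 samples of 1 group, likeness of pattern reduces to likeness of level. The genes nearest to dod-6 on the log2(RPKM + 1) scale in both replicates were W08E12.7, D2030.4 (now named ndub-7) and art-1, with largest differences of 0.0095, 0.013 and 0.023. A total of 56 genes lay within 0.1 of dod-6. The nearest to dod-20 were C47E8.3, K08E7.10 and unc-130, and 28 genes lay within 0.1 of it.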

How the data were processed

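TruSeq RNA libraries were made from total RNA, per the labels' protocols. CASAVA 1.8.2 is named in the submitters' processing notes. The sources used here do not give the aligner, counter, annotation or build. Per the file headers, the authors deposited RPKM values for both replicates in 1 table. RPKM holds no totals, so no count model was used. With 1 group, no test between groups was possible.

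From 19990 rows, 104 named by coordinates and 12 sharing a name were left out. Commas were removed from the larger values. Positions and lengths come from WBcel235 (release 115), where 1042 names found no match. Depth was set where RPKM times coding length gave most whole reads (86.6% of 3510 values in replicate 1 and 85.4% of 3395 in replicate 2, within 0.1 read, where chance gives 20%). The depth step was tested on simulated data. The pseudocount was 1. All 10 dod genes are named; from other lists the 3 highest and the lowest, and all regulators. Members and lists were chosen with earlier results of these data known. Alternatives covered scaling, pseudocounts, limits and single replicates. Analysis used scipy 1.17.1, pandas 2.3.3, numpy 2.4.6 and matplotlib 3.10.9 under Python 3.11.15.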

Additional observations from a re-analysis of the deposited data

How the results depend on the processing

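Of 100 alternatives for single dod genes (level or replicate ratio), 8 moved by more than the replicate spread. The 10 levels without replicate 1 and the 10 without replicate 2 could not do so. With n = 2, each replicate always lies within the SD of the mean. The class difference with 1 replicate left out was bound in the same way. Division by exonic length moved 6 levels, and pseudocounts of 0.1 and 0.5 moved the difference of dod-21, as replicate 2 minus replicate 1 on the log2 scale, to 2.04 and 0.70, against 0.39 with a pseudocount of 1. The number of dod genes at or above the limit was 1 at 200 RPKM, 4 at 50 RPKM, and 3 with either replicate left out. With exonic length it was 2, as dod-6 was then at 87.5 RPKM, under the limit of 100 RPKM. The median of the dod genes was 25.1 RPKM with exonic length and 45.3 RPKM without members under 1 RPKM, and 29.5 to 31.5 RPKM with 1 replicate left out. The difference between class 1 and class 2 medians was 4.32 and 4.27 with pseudocounts of 0.1 and 0.5, 3.71 without members under 1 RPKM, 3.36 with exonic length, and 4.18 to 4.23 with 1 replicate left out. With exonic length the share of whole reads dropped to 25.6% in replicate 1 and 26.0% in replicate 2. With a limit of 50 RPKM, 7 CUB-like genes and 2 regulators passed, and with 200 RPKM 2 other class 2 genes did. The share of all genes was counted at 1 and 100 RPKM only. The counts at 50 and 200 RPKM, those of the dod genes included, therefore have no background beside them. Without genes under 1 RPKM, list medians were 26.6 (CUB-like), 214 (class 1) and 129.7 RPKM (class 2). The CUB-like median was 11.81 to 13.6 RPKM with 1 replicate left out. In the remaining alternatives run, these results moved by less than the replicate spread, or by no more than 1.5 times for counts. No dod gene with a mean of at least 1 RPKM passed 2-fold between the replicates under the other pseudocounts and scalings, or 1.5-fold with the pseudocount of 1. No paired analysis was possible because the design holds 1 group. Promoter motif counts were not run, as no promoter sequence was used here. Levels under the floor of 3 reads cannot be told from 0.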
